A study of Mus musculus with 23 samples.

Results

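The comparison concerns mice bred for a high (HMACT) or a low (LMACT) response to a single dose of methamphetamine, and asks how their nucleus accumbens differed shortly after the drug. It uses 11 of the 23 arrays of the series: 6 HMACT arrays (replicates 1 to 6) and 5 LMACT arrays (replicates 2 to 6), selected by their titles. Both lines came from C57BL/6J x DBA/2J stock. Each array holds RNA of a 4-way tissue pool, taken 1 hour after an injection of 2 mg/kg methamphetamine. The mean age of the mice in a pool was 77.25 to 150 days in HMACT and 60 to 114.75 days in LMACT. The remaining 12 arrays, 6 of each line, had saline in place of the drug (pools of 77.25 to 154 and 61.5 to 127.5 days) and were used for the line difference outside the drug condition. The labels name 1 line for each direction of selection, so that the selected response and any other difference between these lines cannot be told apart. Genes were described where their log2 signal was over 2.3, the floor of the deposited table, on 6 or more of the 11 arrays. This held for 5308 of the 8251 genes measured (64.3%), of which 5160 were above the floor on all 11 arrays.

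Methamphetamine is a psychostimulant that enters dopamine terminals and releases dopamine into the synapse. The nucleus accumbens, the ventral part of the striatum, receives dense dopamine input from the midbrain. Its main cells are GABAergic projection neurons carrying dopamine receptors, and its output contributes to the locomotor and rewarding effects of such drugs. Stimulants induce immediate early genes such as Fos and Fosb in these neurons, and lines selected for opposite drug responses are used to find genes whose expression segregates with the response.

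The tissue label was set against neuronal markers. Of the 18 striatal projection neuron genes on the array, 11 were above the floor, among them Penk (enkephalin precursor, 14.26 log2 signal in HMACT and 14.38 in LMACT), Tac1 (substance P precursor, 9.93 and 9.91) and Drd2 (the D2 dopamine receptor, 6.20 and 5.92). Ttr, the defining choroid plexus gene, was at the floor on all 11 arrays, as were Neurod6 and Camk2a of the cortical and septal neuron list. A value at the floor does not show that a transcript was absent. The oligodendrocyte genes Cnp and Ugt8a were at the floor too, while Mobp and Mbp had means of 12.26 and 11.25. Of the 6 choroid plexus and ependymal genes measured, 3 were above the floor, Folr1, Igf2 and Foxj1, and they were higher in HMACT by 0.00 to 0.12. Tbr1, another cortical neuron gene, had a mean of 9.37.

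Several properties of the arrays moved with or within the lines. The HMACT pools were older on the labels, 115.4 ± 35.0 days (SD, n = 6, range 77.25 to 150) against 76.9 ± 21.7 days (SD, n = 5, range 60 to 114.75), a difference of 38.5 days (two-sided exact permutation test over 462 splits, p = 0.0758, where the smallest possible p is 0.00433). Without LMACT replicate 6, whose pool was the oldest of its line, the difference was 48.0 days (exact permutation p = 0.0381). Leaving out any other single pool gave 31.6 to 46.15 days, with an exact permutation p of 0.0556 to 0.151. A single axis, the first principal component of the deviations from the group means, carried 62.1% of the variation within groups, and 1 array of each line stood apart on it. These were HMACT replicate 3, with a score of 62.5, and LMACT replicate 4, with 56.5, while the other arrays lay between -22.1 and 23.8. On LMACT replicate 5 the 3′ control probe sets exceeded the 5′ ones by 4.57 log2 units, against 2.00 to 2.80 for the 6 HMACT arrays and 2.26 to 2.62 for the other LMACT arrays. Both lines were on chip lot A (4 HMACT and 3 LMACT arrays) and lot B (1 each). Of these methamphetamine arrays, lot C held only HMACT replicate 5 and lot D only LMACT replicate 4, which stood apart. No other array of the series was on lot D, so the deviation of LMACT replicate 4 and its lot cannot be told apart. Results are also given without the arrays named here, within lot A and by age of the pool. Beyond that, the part of age, lot, the array axis and the 3′ signal was not tested.

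**Figure D1:**
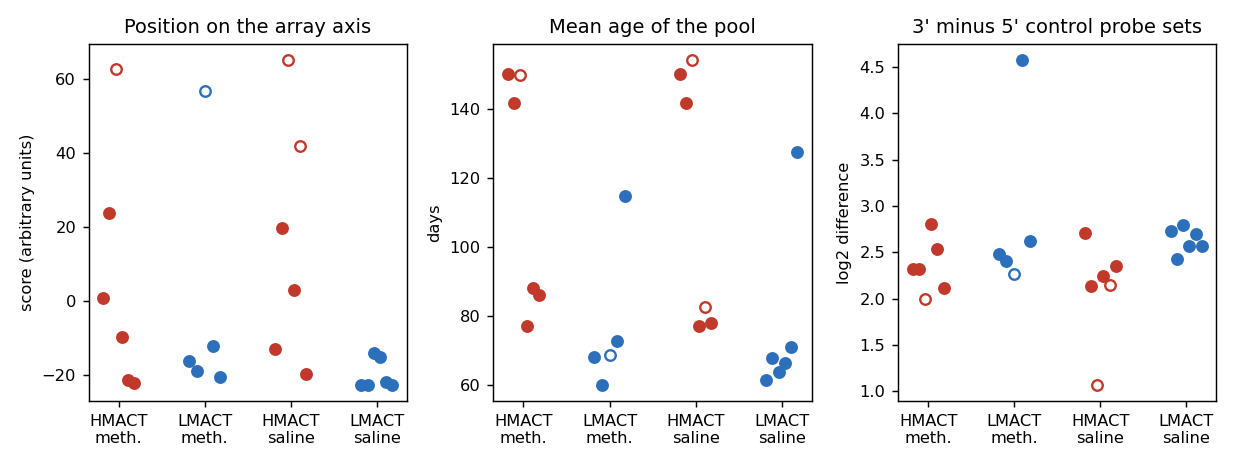
Each point is 1 array of the line (HMACT or LMACT) and injection (methamphetamine or saline) on the x axis; open points are the 4 arrays that stand apart. The left panel plots the score on the first axis of within-group variation (arbitrary units), the middle panel the mean age of the pool in days, and the right panel the log2 difference between 3′ and 5′ control probe sets. After methamphetamine 1 array of each line lies above 50 on the axis (62.5 and 56.5), and 1 LMACT array lies at 4.57 on the 3′ measure.

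No gene passed an adjusted p of 0.05 between the lines after methamphetamine (0%, 0 of 8251, limma with Benjamini-Hochberg adjustment, 2-sided). The smallest adjusted p was 0.131, and 354 genes had an unadjusted p under 0.05 (4.29% of those tested). Among the 5308 genes above the floor, 325 did (6.12%): 117 higher in HMACT (2.2%) and 208 lower (3.92%). Most differences were small. The median was -0.02 on the log2 scale and the 5th and 95th percentiles were -0.49 and 0.39, with a median standard error of 0.219. A difference of more than 1 log2 unit was seen for 24 genes higher and 17 genes lower in HMACT. For 43 genes (0.81%) the 6 HMACT arrays and the 5 LMACT arrays did not overlap, 27 of them higher in HMACT (0.509%) and 16 lower (0.301%). The values that follow are therefore levels and differences with their errors, not calls.

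With the 4 arrays that stand apart left out of the fit, 2 of them methamphetamine arrays, 3 genes passed the threshold, all higher in HMACT: Nnat, Dkk3 and Cfl1. The median standard error was then 0.171. With the fit restricted to the methamphetamine arrays and the same 2 left out, no gene passed (smallest adjusted p 0.166 in limma, and 547 genes with an unadjusted p under 0.05). Leaving out HMACT replicate 3 alone let 1 gene, Dkk3, pass. Array weights, which give less weight to arrays that deviate more, let 136 genes pass, 55 higher and 81 lower in HMACT, and 16 of the 20 genes described next were among them. With the age of the pool as a covariate, or with only the pools under 100 days, no gene passed.

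The 10 genes with the smallest p-values in each direction are described in turn. Probe sequences were not used here, so a sequence variant between the lines under a probe and a difference in transcript level cannot be told apart for any of them. Those higher in HMACT begin with Dkk3, a secreted glycoprotein of the Dickkopf family of Wnt regulators. Its log2 signal on the HMACT arrays ran from 5.90 to 6.94 with a median of 6.67. On the LMACT arrays it was 5.88, 5.69, 5.19, 5.49 and 5.42 in replicates 2 to 6. The lowest HMACT array, replicate 3, lay just above the highest LMACT array, so the groups did not overlap but nearly met. The difference was 1.07 log2 units (95% interval 0.67 to 1.47), or 2.10-fold, with an adjusted p of 0.131 in limma. Without the arrays that stand apart it was 1.12, with an adjusted p of 0.00967.

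Cfl1 encodes cofilin, which severs actin filaments and takes part in the remodelling of dendritic spines. It ran from 10.40 to 11.05 in HMACT. The LMACT values were 9.5, 10.06, 10.04, 9.45 and 9.51. The groups did not overlap, and the difference of 1.18 (95% interval 0.68 to 1.68, 2.27-fold) had an adjusted p of 0.145 in limma. It was 1.23 without the arrays that stand apart, with an adjusted p of 0.00967.

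Cd200 and 1810009A15Rik followed. Cd200 encodes a membrane glycoprotein of neurons whose receptor sits on microglia and other myeloid cells. Its HMACT values ran from 5.84 to 6.73 with a median of 6.38, and its LMACT values were 5.13, 5.35, 5.57, 5.91 and 5.55. LMACT replicate 5 lay above the lowest HMACT array, so the lines overlapped, with a difference of 0.87 (SE 0.174). 1810009A15Rik, a gene named only by its clone, ran from 7.07 to 7.47 in HMACT. Its LMACT values were 5.76, 6.59, 6.24, 6.59 and 6.11, without overlap. Its difference was 0.91 (SE 0.175).

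Thumpd1, whose product assists the acetylation of transfer RNA, had the largest difference of the 10 genes higher in HMACT. The LMACT arrays were close together at 5.27, 5.17, 5.39, 5.04 and 5.12. The HMACT arrays spread from 5.69 to 8.07 with a median of 7.40, and the lowest was replicate 3. The difference of 1.94 (SE 0.503, 3.84-fold) had an adjusted p of 0.503 in limma, and it was 2.28 without the arrays that stand apart.

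Smim20 encodes a small mitochondrial membrane protein that takes part in the assembly of cytochrome c oxidase. It ran from 8.53 to 9.41 in HMACT, with a median of 8.96. The LMACT values were 7.71, 7.84, 7.39, 6.05 and 7.37, all below the HMACT arrays. The lowest came from replicate 5, the array with the high 3′ control signal. The difference was 1.69 (SE 0.409, 3.23-fold, limma adjusted p = 0.447), and a second probe set of the gene stayed at the floor on all 11 arrays.

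The remaining 4 were Slc15a2, Nfu1, Blcap and Itgb1bp1. Slc15a2 encodes a transporter of di- and tripeptides found in astrocytes and choroid plexus. It ran from 5.0 to 5.77 in HMACT against 4.44, 3.81, 4.47, 4.99 and 3.83 in LMACT, and the lines met at their edges without overlapping (difference 1.05, SE 0.247). Nfu1 encodes a carrier of iron-sulfur clusters in mitochondria and was higher by 0.68 (SE 0.149), with 1 LMACT array inside the HMACT range. Blcap, a small membrane protein gene, averaged 10.88 in HMACT and 10.31 in LMACT without overlap. Itgb1bp1, a binding partner of the integrin beta 1 tail, averaged 8.74 and 8.14, also without overlap. Its 3 probe sets disagreed, since the other two gave 0.88 and -0.00.

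Nnat, which encodes the small membrane protein neuronatin, is the gene next to Blcap in the reference order and is known to lie within an intron of it. It was looked at as a neighbour, and it was also one of the 3 genes that passed without the arrays that stand apart. Its signal ran from 8.17 to 8.64 in HMACT, and its LMACT values were 6.70, 7.20, 7.49, 7.15 and 6.41. The groups did not overlap, with a difference of 1.41 (SE 0.378). The genes overlap each other, so their signals may not be separate.

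Nudt19 had the largest difference among the genes lower in HMACT, and among all 20. It encodes a peroxisomal enzyme that hydrolyses coenzyme A and its esters. Its HMACT values ran from 6.10 to 7.44 with a median of 6.93. Its LMACT values were 8.88, 8.92, 9.25, 9.73 and 8.83. The highest HMACT array lay more than 1 log2 unit below the lowest LMACT array. The difference of -2.25 (95% interval -3.14 to -1.36, 4.74-fold lower in HMACT) had an adjusted p of 0.131 in limma, and it was -2.26 without the arrays that stand apart, with an adjusted p of 0.0855.

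Genes of phosphorylation and of protein traffic were next. Ppp2r5a encodes a regulatory subunit of protein phosphatase 2A. It ran from 7.74 to 8.35 in HMACT against 8.49, 8.59, 8.80, 8.37 and 8.69 in LMACT, without overlap, a difference of -0.48 (SE 0.120). Snx14 encodes a sorting nexin of endosomes and lysosomes and averaged 5.82 against 6.38, without overlap. Galnt11, which starts O-linked glycosylation in the Golgi, differed by -0.40 (SE 0.106) with overlapping lines. In lot A alone that difference was -0.18, and that of Snx14 was -0.38 in pools under 100 days.

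Ctnna1 and Myl12b belong to the cell cortex, as alpha-catenin of adherens junctions and as a regulatory light chain of non-muscle myosin. Ctnna1 ran from 5.75 to 6.11 in HMACT and from 6.13 to 6.71 in LMACT. Myl12b ran from 13.88 to 14.69 and from 14.73 to 15.16. Neither overlapped, and the differences were -0.43 (SE 0.113) for Ctnna1 and -0.58 (SE 0.160) for Myl12b.

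The last 4 overlapped between the lines. Psmc1, an ATPase subunit of the proteasome cap, averaged 7.47 against 7.95 (difference -0.48, SE 0.122). Herc2, a large ubiquitin ligase, averaged 5.68 against 6.00, and its difference of -0.32 was -0.21 in lot A. Atxn7l1 averaged 5.71 against 6.69, and LMACT replicate 5 reached 7.91. Dgka, a kinase of diacylglycerol, was at 2.36 on 5 HMACT arrays and on 2 LMACT arrays, and its difference of -0.17 came from 3 LMACT arrays at 2.61, 2.61 and 2.75.

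**Figure D2:**
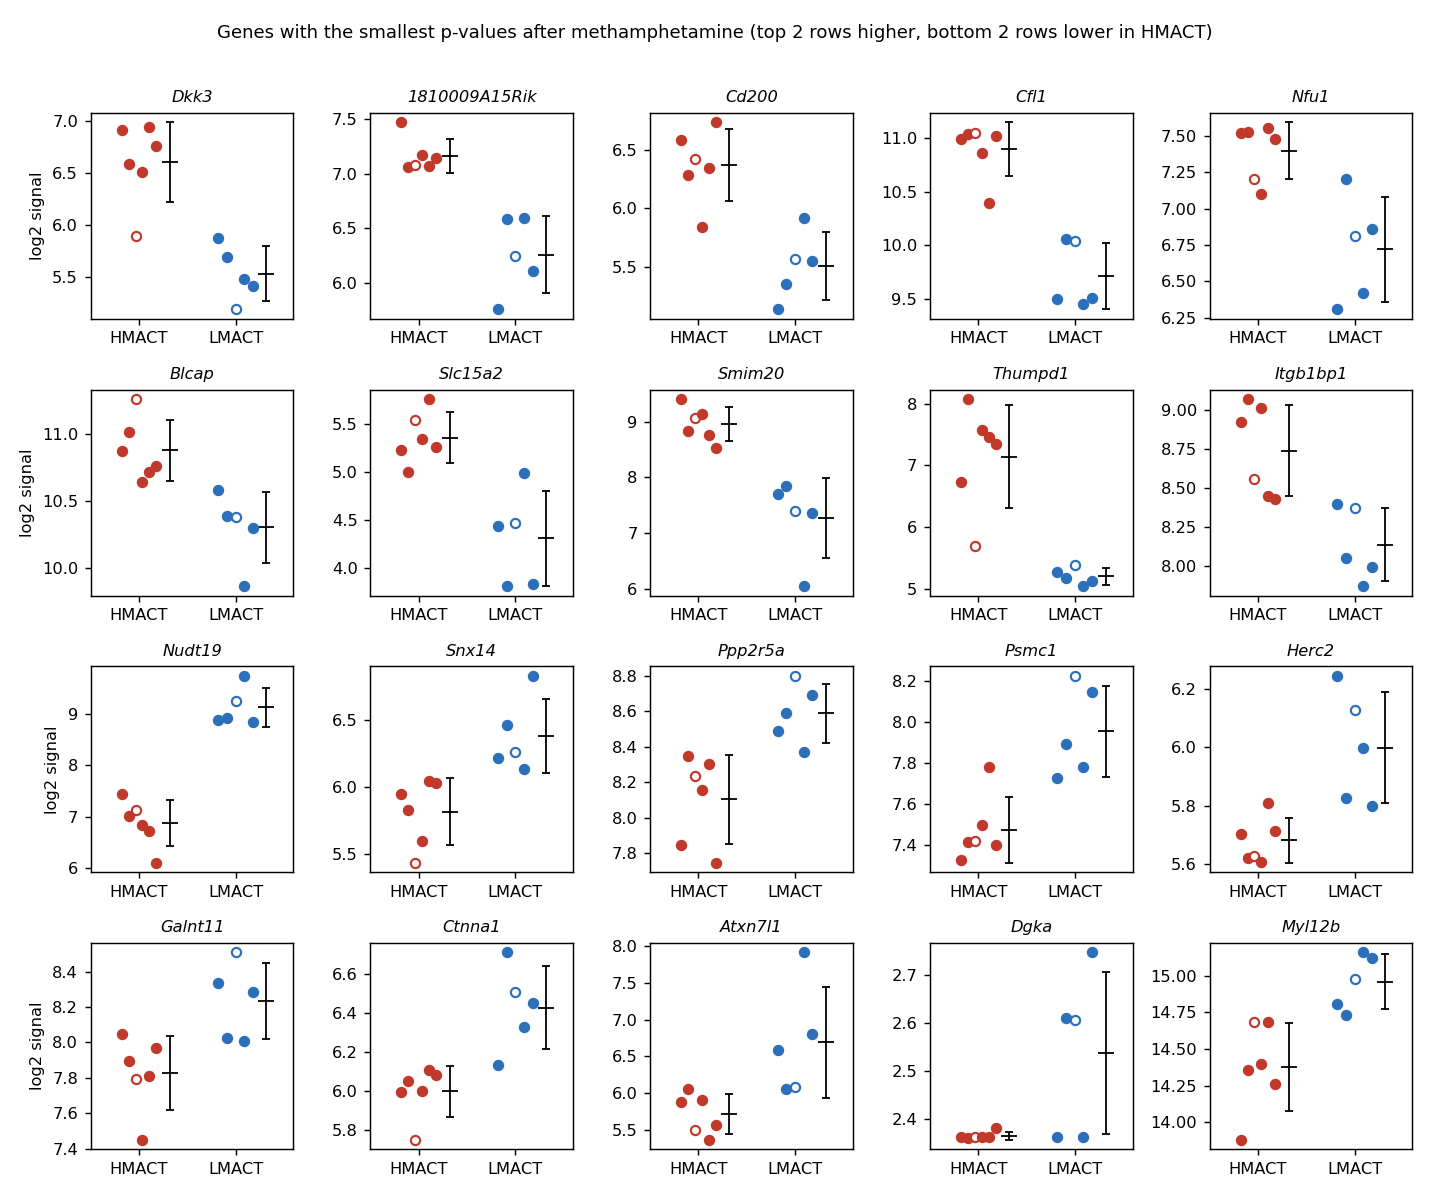
Log2 signal of the 20 genes with the smallest p-values after methamphetamine; each point is 1 array (6 HMACT in red, 5 LMACT in blue), open points are the arrays that stand apart, and the bars show the mean ± SD. Upper 2 rows, genes higher in HMACT; lower 2 rows, genes lower in HMACT. In 13 of the 20 panels the lines do not overlap, against 43 of all 5308 genes above the floor (0.81%). The 20 were chosen by small p on these same arrays, so that count is fixed in part by the choice. Nudt19 shows the widest separation (6.10 to 7.44 against 8.83 to 9.73).

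The saline arrays of the same lines, which entered none of the means above, show which of these differences were present without the drug. After saline, 0 of 8251 genes passed the threshold (0%, limma), and 1256 had an unadjusted p under 0.05 (15.2%). Of the 20 genes, 18 differed in the same direction after saline, 12 of them with an unadjusted p under 0.05, against 22.9% of genes above the floor (10.1% higher and 12.8% lower in HMACT). These were 19 and 8 without the arrays that stand apart, against 14%. The fit gives each gene the same spread estimate after methamphetamine and after saline, and the 20 were chosen by small p. The count with an unadjusted p under 0.05 after saline is therefore not independent of that choice. For 18 of the 20 the saline difference was the smaller in size; the 20 were chosen as extreme after methamphetamine, so that order is fixed in part by the choice.

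Nudt19 was lower in HMACT by a log2 difference of -1.89 after saline, and Slc15a2 was higher by 1.23, close to their values after the drug. Dkk3 was higher by only 0.31, with means of 6.57 in HMACT and 6.26 in LMACT, against 6.60 and 5.53 after methamphetamine. Smim20 had no such difference, with 8.53 in HMACT and 8.57 in LMACT after saline. The gap between its line differences under the 2 injections, 1.73, had the smallest interaction p of the 20 (0.00634), but its adjusted p in limma was 0.860.

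Across the 5308 genes, the line difference after methamphetamine and that after saline had a correlation across genes of 0.501 (Pearson r) and 0.442 (Spearman rho), and 62.4% had the same sign. Without the arrays that stand apart, r was 0.602 and rho 0.499. The genes are not independent replicates, and all values share the platform and the lines. The weights of the array axis correlated with the difference after methamphetamine at 0.388 and with that after saline at 0.920. Of the saline arrays, 2 of HMACT and none of LMACT stood apart. Of the 43 genes whose lines did not overlap after methamphetamine, 38 had the same sign after saline. The lines did not overlap for 156 genes after saline (2.94%), and 4 separated them under both injections in the same direction: Blcap, Coa3 (an assembly factor of cytochrome c oxidase, higher by 1.21 and 1.66), Med1 (a Mediator subunit, -0.54 and -0.77) and Prom1 (the membrane protein prominin, -0.61 and -1.08).

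**Figure D3:**
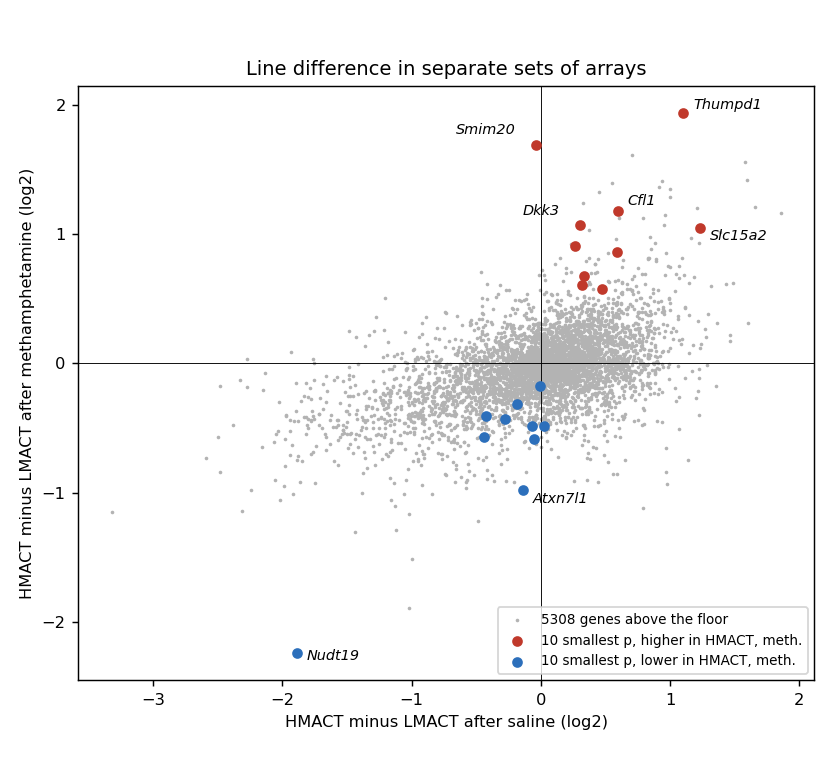
Line difference (HMACT minus LMACT, log2) after saline on the x axis and after methamphetamine on the y axis, from separate arrays, for 5308 genes above the floor (grey). Red and blue points are the 20 genes with the smallest p-values after methamphetamine, 10 in each direction; Nudt19 lies far from 0 on both axes (-1.89 and -2.25), while Smim20 lies near 0 after saline (-0.04) and at 1.69 after methamphetamine.

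The interaction, which tests whether the line difference was the same under both injections, called no gene (0 of 8251, 0%, limma; 216 with an unadjusted p under 0.05, 2.62%, and 210 of those above the floor, 3.96%). The 3 genes above the floor with the smallest p were Cramp1l, Klf3 and Nudt3, each with an adjusted p of 0.860. Klf3, a zinc finger repressor, was lower in HMACT after the drug by a log2 difference of -0.34 without overlap, and higher by 0.11 after saline. Its second probe set gave -0.01 after the drug. Nudt3, a hydrolase of diphosphoinositol phosphates, gave -0.41 and 0.51. Cramp1l gave -0.28 and 0.31.

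Gene lists were read against the genes above the floor, of which 2288 were higher and 3017 lower in HMACT. The immediate early genes, transcribed within minutes of neuronal activity, had 28 of 31 measured members above the floor: 9 were higher and 19 lower in HMACT, with a median of -0.13, and 1 in each direction had an unadjusted p under 0.05 (background 6.12%). Within lot A 16 were higher and 12 lower, with a median of 0.05. There, 2852 of all genes above the floor were higher and 2396 lower (53.7% higher, median 0.02). Fosb, which forms AP-1 with Jun proteins and whose stable splice form builds up with repeated stimulants, was the one higher in HMACT. Its HMACT values ran from 11.73 to 12.96 with a median of 12.79, and its LMACT values were 10.26, 12.43, 12.04, 10.60 and 11.06. The lines overlapped, and the difference of 1.24 (SE 0.527) had an unadjusted p of 0.0291 and an adjusted p of 1 in limma. After saline it was 0.33.

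Nr4a1, an orphan nuclear receptor induced by dopamine and glutamate signals, differed by -0.47 (SE 0.204). It averaged 7.94 against 8.41, and on each line the array that stands apart gave its highest value, 8.56 and 9.03. Within lot A the difference was -0.23. Fos itself averaged 9.98 and 10.11, Egr1 9.95 and 10.18, and Dusp1, a phosphatase of MAP kinases, 9.43 and 9.82. The 95% intervals of Fos, Egr1 and Dusp1 held 0.

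Glucocorticoid responsive genes gave 7 higher and 12 lower of 19, with a median of -0.09 and none under an unadjusted p of 0.05. Within lot A 10 were higher and 9 lower, and in pools under 100 days 5 were higher and 14 lower. The smallest p-values were those of Sgk1, a kinase induced by corticosteroids (-0.28, SE 0.154), and of Klf9, a transcription factor induced by them (-0.39, SE 0.239). Without LMACT replicate 5 Sgk1 was at -0.44 and Klf9 at -0.14, and without LMACT replicate 4 Klf9 was at -0.60. Circadian clock genes gave 6 higher and 8 lower of 14, also with none under an unadjusted p of 0.05. In lot A, and also in pools under 100 days, 8 of them were higher and 6 lower. Arntl, which pairs with Clock, differed by -0.17, and Nfil3, a repressor of clock output genes, by 0.18. Csnk1e encodes casein kinase 1 epsilon, which phosphorylates Period proteins and has been studied as a candidate gene for the methamphetamine response. It averaged 8.37 ± 0.19 (SD, n = 6) in HMACT and 8.07 ± 0.66 (SD, n = 5) in LMACT, a difference of 0.30 with a 95% interval of -0.27 to 0.87. The LMACT values were 8.13, 8.47, 8.53, 6.92 and 8.31, and without replicate 5, the lowest, the difference was 0.01.

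Genes of the dopamine system itself were little represented. Of the 23 monoamine and acetylcholine genes measured, 9 were above the floor, with 7 higher, 2 lower, a median of 0.05 and none with an unadjusted p under 0.05. In pools under 100 days 1 was higher and 7 were lower, with a median of -0.09. Th, the rate-limiting enzyme of dopamine synthesis, averaged 4.33 in HMACT and 4.27 in LMACT, and Maoa, which degrades monoamines, 6.67 and 6.72. Ache, the enzyme that breaks down acetylcholine, was higher by 0.34, and Adra2c, an inhibitory adrenergic receptor, by 0.17; both turned negative in pools under 100 days (-0.22 and -0.14), and Ache was at -0.18 with age as a covariate. Leaving out single arrays, Ache ran from 0.05 to 0.67 and Adra2c from 0.02 to 0.36. The 11 striatal projection neuron genes gave 7 higher and 4 lower, a median of 0.14 and none under that p. Foxp1, a transcription factor of projection neurons, was at -0.43 on one probe set and -0.03 on another, and at 0.13 in pools under 100 days. Isl1, a factor of the direct pathway neurons, had a low signal (2.72 against 2.58).

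Glutamate and GABA receptor genes gave 3 higher and 12 lower of 15, with a median of -0.16. In pools under 100 days 8 were higher and 7 lower, with a median of 0.06. Grik1, a kainate receptor subunit, had an unadjusted p under 0.05 at a low signal (2.7 against 2.92). Gria1, an AMPA receptor subunit, was lower by a log2 difference of -0.30 on one probe set and higher by 0.58 on another; their mean gave 0.14. Channel genes gave 8 higher and 15 lower of 23, with a median of -0.14. Without the arrays that stand apart 10 were higher and 13 lower, with a median of -0.02. In lot A 14 were higher and 9 lower, where 53.7% of all genes above the floor were higher. Kcnma1, the large-conductance calcium-activated potassium channel, averaged 8.94 against 9.44 (difference -0.50, SE 0.196), and its saline difference was -0.49. Cacna1g, a T-type calcium channel, differed by -0.37 (SE 0.189).

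Synaptic vesicle and SNARE genes gave 16 higher and 12 lower of 28, with a median of 0.09. The 3 with an unadjusted p under 0.05 were all higher in HMACT, where the background in that direction was 2.2%. Nsf, the ATPase that takes SNARE complexes apart, ran from 12.31 to 12.51 in HMACT against 12.29, 12.05, 12.23, 11.56 and 11.86 in LMACT. The lines did not overlap, with a difference of 0.40 (SE 0.122) after methamphetamine and 0.35 after saline. Cplx1, complexin 1, a clamp and helper of vesicle fusion, averaged 7.10 against 5.75, and its LMACT values spread from 4.36 to 6.65. Its difference was 1.35 (SE 0.517), or 0.82 with array weights. Syn2, synapsin 2, differed by 0.37.

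Among 37 actin cytoskeleton genes 19 were higher and 18 lower, with a median of 0.02, but the 4 with an unadjusted p under 0.05 were all higher in HMACT (background in that direction 2.2%): Cfl1, Coro2b, Fscn1 and Pfn2. Coro2b, a coronin of neurons, ran from 8.88 to 9.81 in HMACT against 7.67, 8.40, 8.98, 7.98 and 8.27 in LMACT. The difference was 1.15 (SE 0.308) after methamphetamine and 0.96 after saline. Fscn1, fascin, which bundles actin, was higher by 0.70, and Pfn2, the neuronal profilin, by 0.49. Their saline differences were 0.39 and -0.13.

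Ribosomal protein genes leaned one way: 19 of 21 were higher in HMACT, with a median of 0.21, where 43.1% of all genes above the floor were higher. The median was 0.23 without the arrays that stand apart, 0.25 in lot A and 0.09 in pools under 100 days. After saline 16 of the 21 were higher, where 54.5% of all genes above the floor were. Their saline median was 0.18, and 0.01 without the arrays that stand apart. Rps3, of the small subunit, ran from 13.09 to 13.34 in HMACT and was 12.02, 12.71, 13.07, 12.35 and 12.53 in LMACT. The highest LMACT array was the one that stands apart, and it lay just below the HMACT arrays. The difference was 0.69 (SE 0.182) after methamphetamine and -0.01 after saline. Rpl8, of the large subunit, was higher by 0.42 (SE 0.183) with overlap.

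Mitochondrial respiratory chain genes gave 25 higher and 14 lower of 39, with a median of 0.15, and of 0.14 without the arrays that stand apart. After saline 24 of the 39 were higher, with a median of 0.14. Without the arrays that stand apart 14 were higher after saline, with a median of -0.06. After methamphetamine 2 of the 39, both higher, had an unadjusted p under 0.05 in limma (5.13%, background 6.12%). Between the lines 3 did not overlap: Atp5e, Ndufv2 and Atp5o, all higher in HMACT (background in that direction 0.509%). The unadjusted limma p was 0.0523 for Ndufv2 and 0.063 for Atp5o. Atp5e, a small subunit of the ATP synthase rotor, ran from 8.38 to 9.51 in HMACT against 7.32, 7.04, 7.56, 8.06 and 7.38 in LMACT, a difference of 1.33 (SE 0.444). It was 0.45 after saline. Atp5l, another ATP synthase subunit, was higher by 1.40 (SE 0.558), and by 0.60 in lot A. Proteasome genes gave 22 higher and 10 lower of 32, with 3 under an unadjusted p of 0.05 in each direction (background 2.2% higher and 3.92% lower). In pools under 100 days 18 were higher and 14 lower. After saline 19 were higher and 13 lower, and 14 and 18 without the arrays that stand apart. Psmb6, a catalytic subunit, was higher by 1.56 (SE 0.423) after methamphetamine and by 1.58 after saline. Psmb7, another catalytic subunit, was higher by 0.44 without overlap, while Psmc1, described above, was lower.

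Peroxisome and coenzyme A genes gave 7 higher and 16 lower of 23, with a median of -0.05. The 4 with an unadjusted p under 0.05 were all lower in HMACT (background in that direction 3.92%): Nudt19, Phyh, Acaa1a and Acaa1b. Phyh, which begins the oxidation of phytanic acid, ran from 5.93 to 6.27 in HMACT and was 6.56, 6.29, 6.25, 6.68 and 6.80 in LMACT, with a difference of -0.42 (SE 0.127). Acaa1a and Acaa1b, thiolases of peroxisomal fatty acid oxidation, differed by -0.96 and -0.47; they are close copies of each other, so their probe sets may share signal. After saline the differences of these 3 were -0.05, -0.58 and -0.04.

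Heat shock and chaperone genes gave 12 higher and 13 lower of 25, and antioxidant genes 13 higher and 10 lower of 23. Hspd1, the mitochondrial chaperonin, differed by -0.74 (SE 0.245) on one probe set and by -0.01 on another. Hspa8, the constitutive cytosolic chaperone, was higher by 0.31, and by 0.48 without the arrays that stand apart. Gclm, a subunit of the enzyme that limits glutathione synthesis, averaged 5.99 against 6.53, and its difference of -0.54 was -0.32 with array weights. Cat, catalase, had a low signal, 3.05 against 3.27, and its HMACT median and lowest LMACT value were the same (3.04). Solute carriers gave 13 higher and 8 lower of 21, and Slc38a2, an amino acid transporter, differed by -0.66 (SE 0.244), and by -0.67 after saline. Of 12 MHC class I and interferon response genes 8 were higher, and Ifi27 and Gbp3 differed by 0.42 and -0.12; without HMACT replicate 3, its highest array, Ifi27 was at 0.23.

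**Figure D4:**
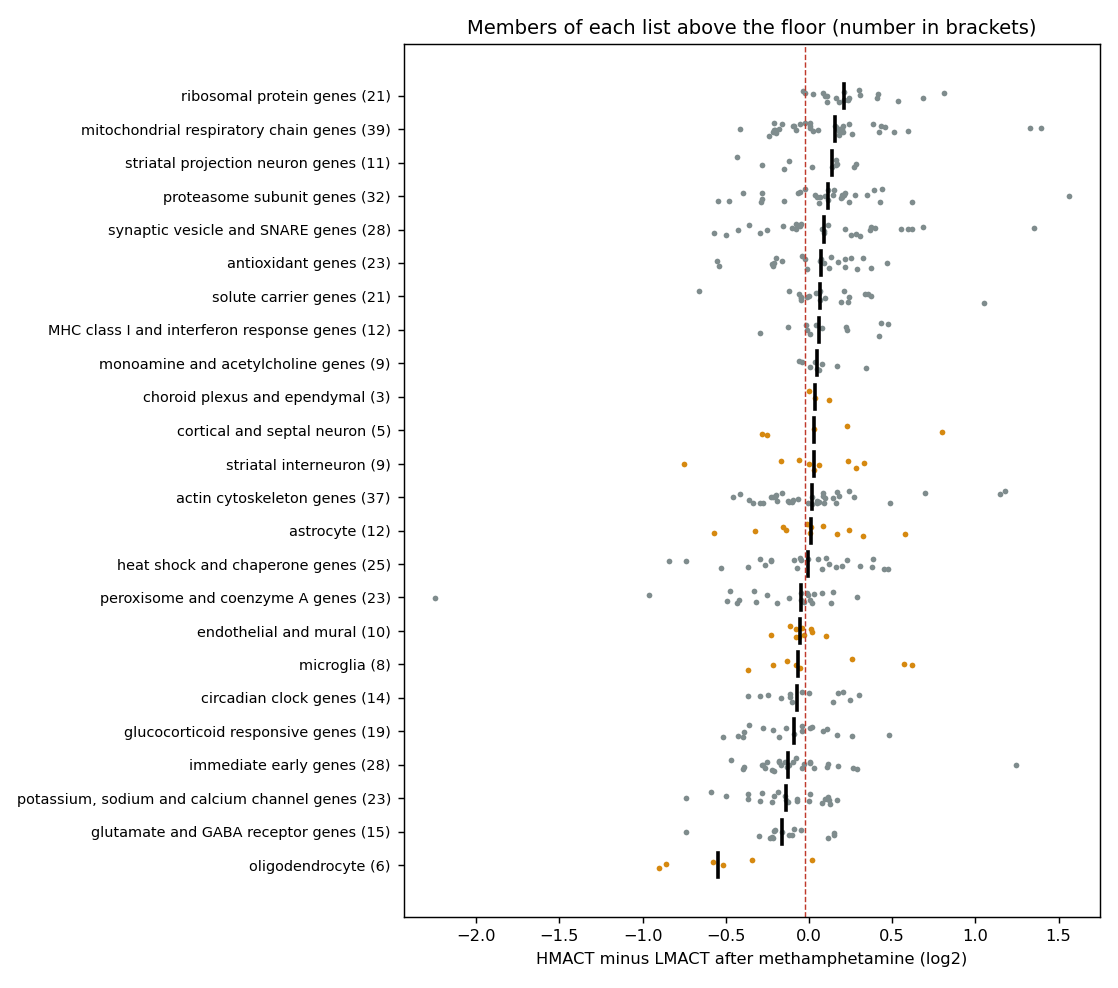
Line difference after methamphetamine (HMACT minus LMACT, log2) of each list member above the floor; grey points are gene lists, orange points are cell type markers, the black bar is the median of the list and the dashed red line is the median of all 5308 genes (-0.02). Lists are sorted by their median, from ribosomal protein genes (0.21) at the top to oligodendrocyte markers (-0.55) at the bottom.

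Markers of the cell types that the pools could hold were compared in the same way. Oligodendrocytes, which wrap axons in myelin, had 6 of 9 measured markers above the floor, while Cnp and Ugt8a were at the floor on all 11 arrays. Of the 6, 5 were lower in HMACT, with a median of -0.55, and 2, both lower, had an unadjusted p under 0.05 (background in that direction 3.92%). Fewer cells of a type and less RNA per cell cannot be told apart in pooled tissue. The log2 of their summed signal ran from 12.11 to 13.19 in HMACT and from 13.21 to 13.61 in LMACT. The lines did not overlap but nearly met. The sum is set mostly by Mobp and Mbp, with means of 12.26 and 11.25 over the 11 arrays. Cldn11, the next strongest, was at 8.22. Each of the 6 markers alone overlapped between the lines. After saline the log2 sum ran from 12.50 to 13.12 and from 12.91 to 13.52.

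Mobp, a myelin protein gene, had the smallest p of the 6. It ran from 10.92 to 12.45 in HMACT and was 12.63, 13.17, 11.98, 12.98 and 12.88 in LMACT. The lowest array of each line was the one that stands apart. The difference was -0.86 (SE 0.280) after methamphetamine and -0.74 after saline. Cldn11, a tight junction protein of myelin, differed by -0.58 (SE 0.269) and by -0.50 after saline.

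Mbp, Mag and Mog, which encode further myelin proteins, differed by -0.34, -0.90 and -0.52 with overlapping lines, and after saline by 0.02, 0.36 and 0.03. Sox10, a transcription factor of the lineage, differed by 0.02. The median of the 6 was 0.05 in lot A, -0.76 in pools under 100 days and -0.44 without the arrays that stand apart. After saline it was 0.02, and -0.27 without the arrays that stand apart. The summed markers, mostly Mobp and Mbp, thus lay lower in HMACT after methamphetamine, while no single marker separated the lines. The part of these markers in the differences of other genes was not tested.

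**Figure D5:**
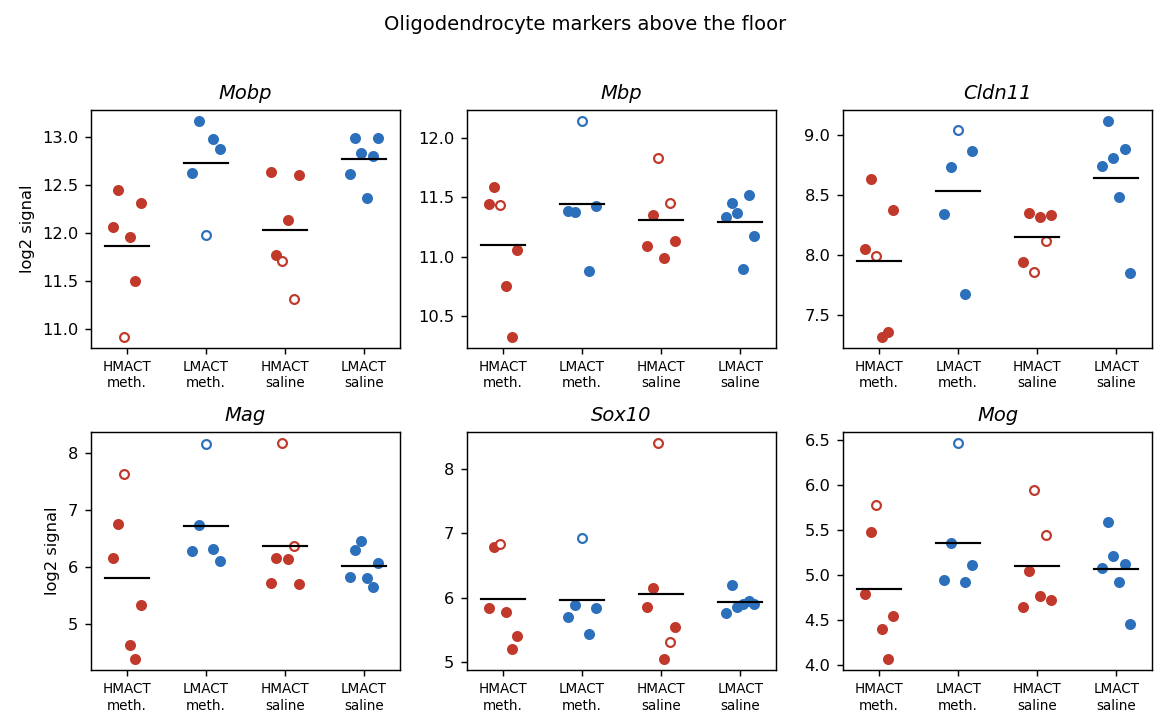
Log2 signal of the 6 oligodendrocyte markers above the floor in each line after methamphetamine (meth.) and after saline; each point is 1 array, open points are the arrays that stand apart, and the bar is the mean. The lines overlap in all 6 panels after methamphetamine; the mean of Mobp is lower in HMACT under both injections (difference -0.86 and -0.74), and those of Mbp, Mag and Mog differ by -0.34, -0.90 and -0.52 after methamphetamine and by 0.02, 0.36 and 0.03 after saline.

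The other lists had medians nearer to 0. The 12 astrocyte markers above the floor had a median of 0.01, the 8 microglia markers -0.07, the 10 endothelial and mural markers -0.05 and the 9 striatal interneuron markers 0.03, and in each of these lists the summed signal overlapped between the lines. The microglia median was 0.45 in lot A and -0.18 in pools under 100 days. After saline it was 0.49, and 0.09 without the arrays that stand apart. The striatal interneuron median was 0.19 in lot A and -0.04 in pools under 100 days. After saline it was 0.32, and -0.05 without the arrays that stand apart. Cx3cr1 and Aif1, defining microglia genes, were at the floor on all 11 arrays. The 5 cortical and septal neuron markers had a median of 0.03, and 1 of them, Nrgn, a calmodulin-binding protein of cortical and striatal neurons, was higher in HMACT by 0.80 without overlap. Of the blood genes 1 of 7, Hba-a1, was above the floor on most arrays, with 0.49.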

How the data were processed

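Biotin-labelled cRNA from 23 mouse nucleus accumbens pools was hybridised to 1 expression array each. The authors deposited 1 value per probe set and array; the log2 scale was inferred from the range, 2.23 to 16.4. R 2.7.1 is named per the submitters' processing notes without a role. The background correction, normalization, probe set summary and genome build were not given in the sources used here. Lines, injections, ages and chip lots came from the labels.

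Of 12488 probe sets, 66 controls were left out; 10833 had 1 gene symbol, 396 several and 1193 none listed, and 10817 matched a RefSeq gene (GRCm38.p6 table, used for names and gene order). The probe set with the highest mean stood for a gene with several (2073 of 8251 genes). limma 3.58.1 in R 4.3.3 fitted 4 group means over the 23 arrays, with eBayes, two-sided tests and Benjamini-Hochberg adjustment over 8251 genes; the script was tested on simulated data. Age was compared with an exact permutation test. An array stood apart when its axis score lay over 3.5 scaled median absolute deviations from the median. Fold changes are ratios of geometric means.

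The genes named are the 10 smallest p-values in each direction above the floor, the 3 smallest of the interaction, the 2 smallest of each list, and Csnk1e; others are list members, markers or genes named after their values were seen. The comparison and the lists were chosen with earlier results of these data known. Alternatives covered normalization, filters, probe set choice, array weights, lot, age, replicate number and left-out arrays. Replicate numbers are shared by both lines, but 2 of 5 same-numbered pairs correlated above 0.1 (range -0.666 to 0.772), so they were not used as pairs. Nor were the numbers shared by saline and methamphetamine arrays of a line, whose pools were close in age: 8 of 11 pairs correlated above 0.1. The labels do not say that pools came from separate litters; the p-values then reflect the spread among pools, which may be technical, and the number of arrays limits the precision.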

Additional observations from a re-analysis of the deposited data

Results flagged for a closer look

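In 19 of 132 groups examined (14.4%), a single array lay far from the others of its line after methamphetamine; chance gives about 1 in 20. On HMACT replicate 3, which stands apart, these were Ctnna1, lowest at 5.75, Ifi27, highest at 9.83, and Nr4a1, highest at 8.56. On LMACT replicate 4, which stands apart with an axis score of 56.5, they were Adra2c at 5.43, Mog at 6.47 and Nr4a1 at 9.03, all highest, and Foxp1 at 6.23 and Kcnma1 at 8.91, both lowest. On LMACT replicate 5, the array with a 3′ minus 5′ control difference of 4.57, Csnk1e at 6.92, Sgk1 at 9.45 and Smim20 at 6.05 were lowest.

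Among the other arrays, 1810009A15Rik was highest on HMACT replicate 1 at 7.47 and Cfl1 lowest on HMACT replicate 5 at 10.40. Dgka was at 2.38 on HMACT replicate 6, Gbp3 at 2.235 on HMACT replicate 2 and Grik1 at 2.74 on HMACT replicate 1, all low signals. The pool of LMACT replicate 6 was far older than the rest of its line, at 114.75 days.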

How the results depend on the processing

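The count of genes past the threshold after methamphetamine, 0 as reported, was 1 with quantile normalization, 6 with median centring, 136 with array weights and 3 without the 4 arrays that stand apart. Under alternatives chosen after seeing the data it was 15 without those arrays and with only genes above the floor, 7 without the 6 arrays an unscaled deviation picks, and 14 with the array axis as a covariate. Median centring moves the values at the floor, and 3002 genes then had an unadjusted p under 0.05. Leaving out single arrays gave 0 to 1. Both filters on low values, the mean of probe sets, a trended robust fit, the lot, age, the 11 arrays alone (also without those that stand apart), pools under 100 days and lot A gave 0. The replicate block also gave 0, with 382 genes under an unadjusted p of 0.05, and numbers did not pair the lines. Of the 5 HMACT arrays that share a number with an LMACT array, 1 correlated best with that LMACT array. A block of saline and methamphetamine arrays of the same line and number, chosen after seeing the data, gave 0 for all comparisons; the interaction then had 414 genes under an unadjusted p of 0.05 as a random block and 357 as a fixed one, against 216. Of those 11 pairs, 8 correlated above 0.1 (range -0.618 to 0.876) and 2 matched best with their own number. After saline the count was 236 with array weights, 3 under the unscaled deviation and 1 with only the saline arrays, without the arrays that stand apart or with that and the filter, and 0 to 1 leaving out single arrays. The interaction called 1 gene under the unscaled deviation and 0 otherwise, also in each fit leaving out an array. The age difference ran from 31.6 to 48.0 days leaving out single pools. Of 1653 values of 54 named genes, 46 newly passed and 6 turned sign: Gria1 to 0.14 (mean of probe sets), Ache to -0.18 (age) and -0.22, Foxp1 to 0.13, Adra2c to -0.14 and Arntl to 0.13 (pools under 100 days). Averaging probe sets took Smim20 to 0.85, Ctnna1 to -0.21 and Coro2b to 0.57. The cause of these shifts was not tested, and 5 or 6 arrays a line limit what the fit can call.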

Other observations

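Of the 43 genes whose lines did not overlap after methamphetamine, 30 lay outside the 20 with the smallest p-values, and the following were picked from them after their values were seen. Pttg1, securin, a regulator of sister chromatid separation, was higher in HMACT by 1.42 log2 units (SE 0.384) and by 1.6 after saline. Hint1, a nucleotide hydrolase that binds the mu opioid receptor, was higher by 0.70 (SE 0.321) and by 1.05 after saline. Ndufb6, a complex I subunit outside the respiratory chain list, averaged 10.40 against 9.64. Gabarapl2, an Atg8 protein of autophagosomes, was higher by 0.68 after methamphetamine and by 0.02 after saline. Fzd4, a Wnt receptor, differed by -0.89 (SE 0.273), and by -0.42 after saline. Rbm14, a coactivator and splicing factor, was the one of these with opposite signs, 0.62 after methamphetamine and -0.42 after saline; neither difference passed the threshold in limma.

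Tmsb10, thymosin beta 10, which binds actin monomers, was not on the actin list. It ran from 8.45 to 9.99 in HMACT and was 7.52, 7.88, 7.66, 8.77 and 7.38 in LMACT, a difference of 1.62 (SE 0.507) that was 1.77 without the arrays that stand apart. Around the 20 genes, 43 pairs with a gene at most 10 places away in the reference order could be measured, for 16 of them. In 29 pairs the neighbour differed in the same direction. The pairs lie beside genes of both directions, and of all 5308 genes above the floor 2288 were higher and 3017 lower in HMACT. In 3 pairs the unadjusted p of the neighbour was also under 0.05 (background 2.2% higher and 3.92% lower): Nnat beside Blcap, Cep89 beside Nudt19 (-0.23) and Syncrip beside Snx14 (-0.47).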
